A study of Mus musculus with 17 samples.

Results

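The cytosolic ribosomal protein genes encode the proteins of the large and the small subunit of the ribosome. They were taken by name: every measured gene whose symbol starts Rpl, Rps or Rplp followed by a digit, or is Rpsa, without the S6 kinases (Rps6k) and names ending in bp1. This rule found 88 of 8446 measured genes. Of these, 76 are core genes (45 of the 46 large subunit genes and all 31 small subunit genes listed), and 12 are further copies of a core gene. Rpl13 is not analysed here. The values come from 17 single cells, numbered 1 to 17, picked from the back skin of adult C57BL/6 mice of the genotype Prrx1-CreERT;Tomato. All of the mice had received tamoxifen, at 2 mg per 30 g of body weight on each of 3 days. The Cre recombinase is driven by Prrx1 and works only with tamoxifen, so that Tomato marks cells in which Prrx1 was active at that time. All cells carry the same labels and no animal is named for any of them, so they form 1 sample, and levels, spreads and correlations over cells are given with no p-value.

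Levels are deposited log values, read as log2(FPKM + 1), where FPKM is fragments scaled by gene length and by the size of the library. Neither the log base nor the constant is stated in the sources at hand. Every cell had nearly the same sorted values and the same number of genes, 4369, at FPKM 1 or more, so a level shows a gene's place within its cell, not an amount of RNA. Fewer molecules per cell and a lower share of the cell's RNA cannot be told apart. The number of genes above a cell's lowest value, 6680 to 7575, differed between cells, and read depth is unknown. Fibroblast identity was checked with 12 markers, of which 11 had a row. Between 9 and 11 of them were at FPKM 1 or more in every cell, and their mean level was 7.31 to 9.73. Markers of other types were also detected. Their counts are to be read beside the 4369 of all 8446 rows at FPKM 1 or more in each cell. Of 6 mural genes, 4 or 5 were at FPKM 1 or more in cells 1 to 5 (mean level 0.91 to 1.91) and 0 to 2 in the other 12 cells (0.03 to 1.15). Acta2, Myl9 and Rgs5 were detected in each of cells 1 to 5, at levels of at most 2.00. Each was also detected in 1 of the other cells, at a higher level (5.64, 4.01 and 2.53). The other mural genes, Kcnj8, Abcc9 and Higd1b, were detected in 2, 1 and 3 of cells 1 to 5. All 3 adipocyte genes were detected in cells 16 and 17, and 0 to 2 in the others. Of 3 endothelial genes 0 to 2 were detected, of 2 keratinocyte genes 0 or 1, and Csf1r was the only immune gene measured. Csf1r was detected in 5 cells, with a highest level of 4.69. These counts cover only markers with a row. Other listed markers, among them Tagln, Pecam1, Cdh5, Ptprc, Krt5, Krt14, Epcam and Adipoq, had none and could not be checked. The mean level of the core genes was 8.45 to 8.87 in cells 1 to 5, within the 8.09 to 9.20 of the other cells, and the part of these markers in the results was not tested.

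A ribosome holds a single copy of nearly every ribosomal protein, and growing cells make the proteins in step with ribosomal RNA. The small subunit decodes the messenger RNA and the large subunit joins the amino acids. Messenger RNAs of these genes begin with a run of C and T, the terminal oligopyrimidine tract, through which the kinase mTOR sets their translation. Mammalian genomes also hold many copies of these genes that arose from reverse-transcribed messenger RNA, most of them pseudogenes, beside a few paralogs with introns that encode a working variant of the protein.

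Rpl37 and Rps27 are shown with a copy, because the similarity of their sequences bears on how their values can be read. The sequences come from GENCODE M21 transcripts on GRCm38, and capitals mark the bases at which the members of a pair differ. They are coding sequences, except that the whole transcript is shown for Rpl37rt. Rpl37 lies at chr15:5116645-5119140 on the plus strand, and its copy Rpl37rt, annotated as a transcribed processed pseudogene, at chr5:115102923-115110268 on the minus strand. They differ at 1 of 294 bases, G249A, counted from 1 at the first base of the Rpl37 coding sequence.
Rpl37: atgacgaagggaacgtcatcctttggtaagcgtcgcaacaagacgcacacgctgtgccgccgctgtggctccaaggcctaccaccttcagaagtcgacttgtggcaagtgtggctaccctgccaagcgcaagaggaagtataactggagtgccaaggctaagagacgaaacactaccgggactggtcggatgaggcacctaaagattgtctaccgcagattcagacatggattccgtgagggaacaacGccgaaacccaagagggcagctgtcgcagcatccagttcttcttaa
Rpl37rt: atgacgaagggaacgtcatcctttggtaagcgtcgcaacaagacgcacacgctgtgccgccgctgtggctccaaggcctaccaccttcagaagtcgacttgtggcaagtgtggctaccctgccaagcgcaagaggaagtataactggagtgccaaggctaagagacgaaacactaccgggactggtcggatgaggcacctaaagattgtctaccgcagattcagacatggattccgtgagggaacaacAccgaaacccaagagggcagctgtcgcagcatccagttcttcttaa

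Rps27, a zinc-binding protein of the small subunit, lies at chr3:90212522-90213651 on the minus strand. It has a paralog with introns, Rps27l, at chr9:66946086-66949516 on the plus strand, which differs from it at 61 of 255 coding bases. It also has an intronless copy, Rps27rt, at chr9:114982366-114982739 on the minus strand, whose 255 coding bases are the same as those of Rps27, so only Rps27 and Rps27l are printed.
Rps27: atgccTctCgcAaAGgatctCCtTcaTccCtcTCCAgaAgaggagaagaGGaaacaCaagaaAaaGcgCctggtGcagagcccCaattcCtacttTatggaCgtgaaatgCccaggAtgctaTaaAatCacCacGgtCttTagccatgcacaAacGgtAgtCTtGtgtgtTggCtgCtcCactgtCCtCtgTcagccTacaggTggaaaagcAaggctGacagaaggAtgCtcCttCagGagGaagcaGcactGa
Rps27l: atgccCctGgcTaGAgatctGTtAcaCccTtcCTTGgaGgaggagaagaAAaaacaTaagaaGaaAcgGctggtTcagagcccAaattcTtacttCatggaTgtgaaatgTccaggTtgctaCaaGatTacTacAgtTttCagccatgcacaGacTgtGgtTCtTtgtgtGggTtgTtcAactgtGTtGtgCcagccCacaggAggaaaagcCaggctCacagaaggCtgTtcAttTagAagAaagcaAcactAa

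Rpl36a and its paralog Rpl36al differ at 39 of 321 coding bases. These 39 bases are spread along the whole sequence, so that no stretch of 50 bases is shared.

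The core genes were expressed in every cell. All 76 were at FPKM 1 or more in 17 of 17 cells, a state reached by 13.02% of all rows of the table, and 75 were at FPKM 10 or more in every cell. The exception at FPKM 10 was Rpl29, at a level of 2.41 in cell 7. Of the 100 genes with the highest mean level, 16 were core genes and 5 were copies, 21 members in all. The mean level over the 17 cells had a median of 8.61 over the core genes, against 1.89 over all rows.

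The SD over cells had a median of 0.674 over the core genes, against 1.10 for the 237 other genes with a mean level of 8 or more and 1.92 for all rows. Of those 237 genes, 214 (90.3%) had an SD above the median of the core genes. The SD depends on the level, and among the 76 core genes the correlation of the SD with the mean level was r = -0.34.

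**Figure D1:**
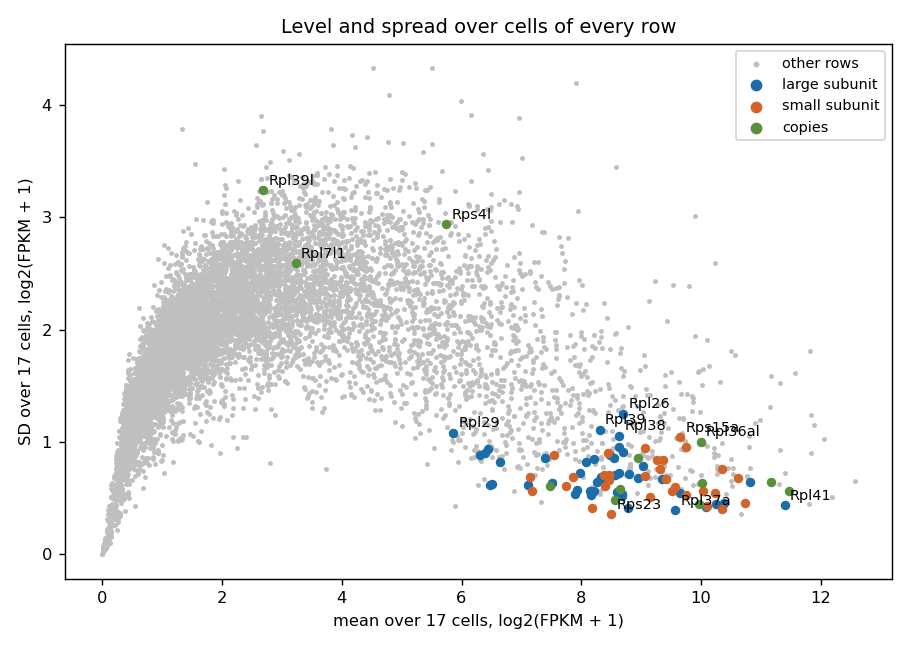
Mean level (x axis) and SD (y axis) over 17 cells of each row, both in log2(FPKM + 1); grey points are the other rows and coloured points the large subunit genes, small subunit genes and copies. The core genes lie at the lower right, with SDs of 0.36 to 1.25, whereas the copies Rpl39l, Rps4l and Rpl7l1 have SDs of 2.59 to 3.24.

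Large subunit genes had mean levels from 5.86 to 11.40. Rpl41, which encodes the smallest ribosomal protein, was the highest, with a level of 10.73 in the lowest cell, 11.25 at the median and 12.27 in the highest. Rpl32 followed at a mean of 10.81, with 9.55 in cell 17 and 11.88 in cell 16. Rpl36 was the fifth by mean, at 10.08 (9.33, 10.04 and 11.08 as lowest, median and highest). Even the lowest cell of Rpl41 stood above the mean of all but 1 of the other large subunit genes.

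The stalk of the large subunit, which recruits the elongation factors, is built from Rplp0 and the paired proteins Rplp1 and Rplp2. Rplp2 had a mean of 10.38 (lowest 9.63, median 10.28, highest 11.20) and Rplp1 a mean of 10.25 (lowest 9.51, median 10.27, highest 10.96). Rplp0, which anchors the pair, was lower, at a mean of 8.55, and ranged from 5.81 in cell 8 to 9.61 in cell 3. The lowest cell of Rplp1 was thus near the highest cell of Rplp0, and the ranges overlapped only between 9.51 and 9.61.

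At the lower end of the large subunit stood Rpl29 (lowest 2.41, median 5.92, highest 7.15), Rpl7a (4.25, 6.32 and 7.57) and Rpl21 (4.40, 6.55 and 7.99). Cell 7 held the lowest value of all of them. Rpl5 and Rpl11, which bind the 5S ribosomal RNA and restrain the p53 inhibitor Mdm2, had means of 7.50 and 8.79. Rpl3 and Rpl4, proteins of the large subunit's core, had means of 6.51 and 8.78. Rpl10, which is added late in assembly, had a mean of 8.68.

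Among small subunit genes the mean level ranged from 7.14 to 10.73. The highest was Rps9 (lowest 9.82, median 10.66, highest 11.64), a protein near the entry of the messenger RNA channel, followed by Rps14 (9.37, 10.61 and 12.17), whose human counterpart is lost in the 5q deletion syndrome, and Rps28 (9.46, 10.15 and 12.02). Rps29 and Rps26 had means of 10.35 and 10.23. Loss-of-function variants of RPS26 and RPS19 in humans cause Diamond-Blackfan anaemia, and the mouse gene Rps19 had a mean of 10.10.

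The lowest small subunit genes were Rpsa, also known as the laminin receptor (lowest 5.94, median 7.10, highest 8.58), Rps7 (6.34, 7.22 and 8.17) and Rps12 (6.06, 7.52 and 9.17). Rps6, the substrate of the S6 kinases, had a mean of 8.46. Rps27a, which is made as a fusion with ubiquitin, had a mean of 8.38. Fau, a fusion of a ubiquitin-like protein with a ribosomal protein, has a name that the rule does not take and had a mean of 8.62. The SDs over cells of these 3 genes were 0.55 to 0.71, and neighbours in level differed by less.

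**Figure D2:**
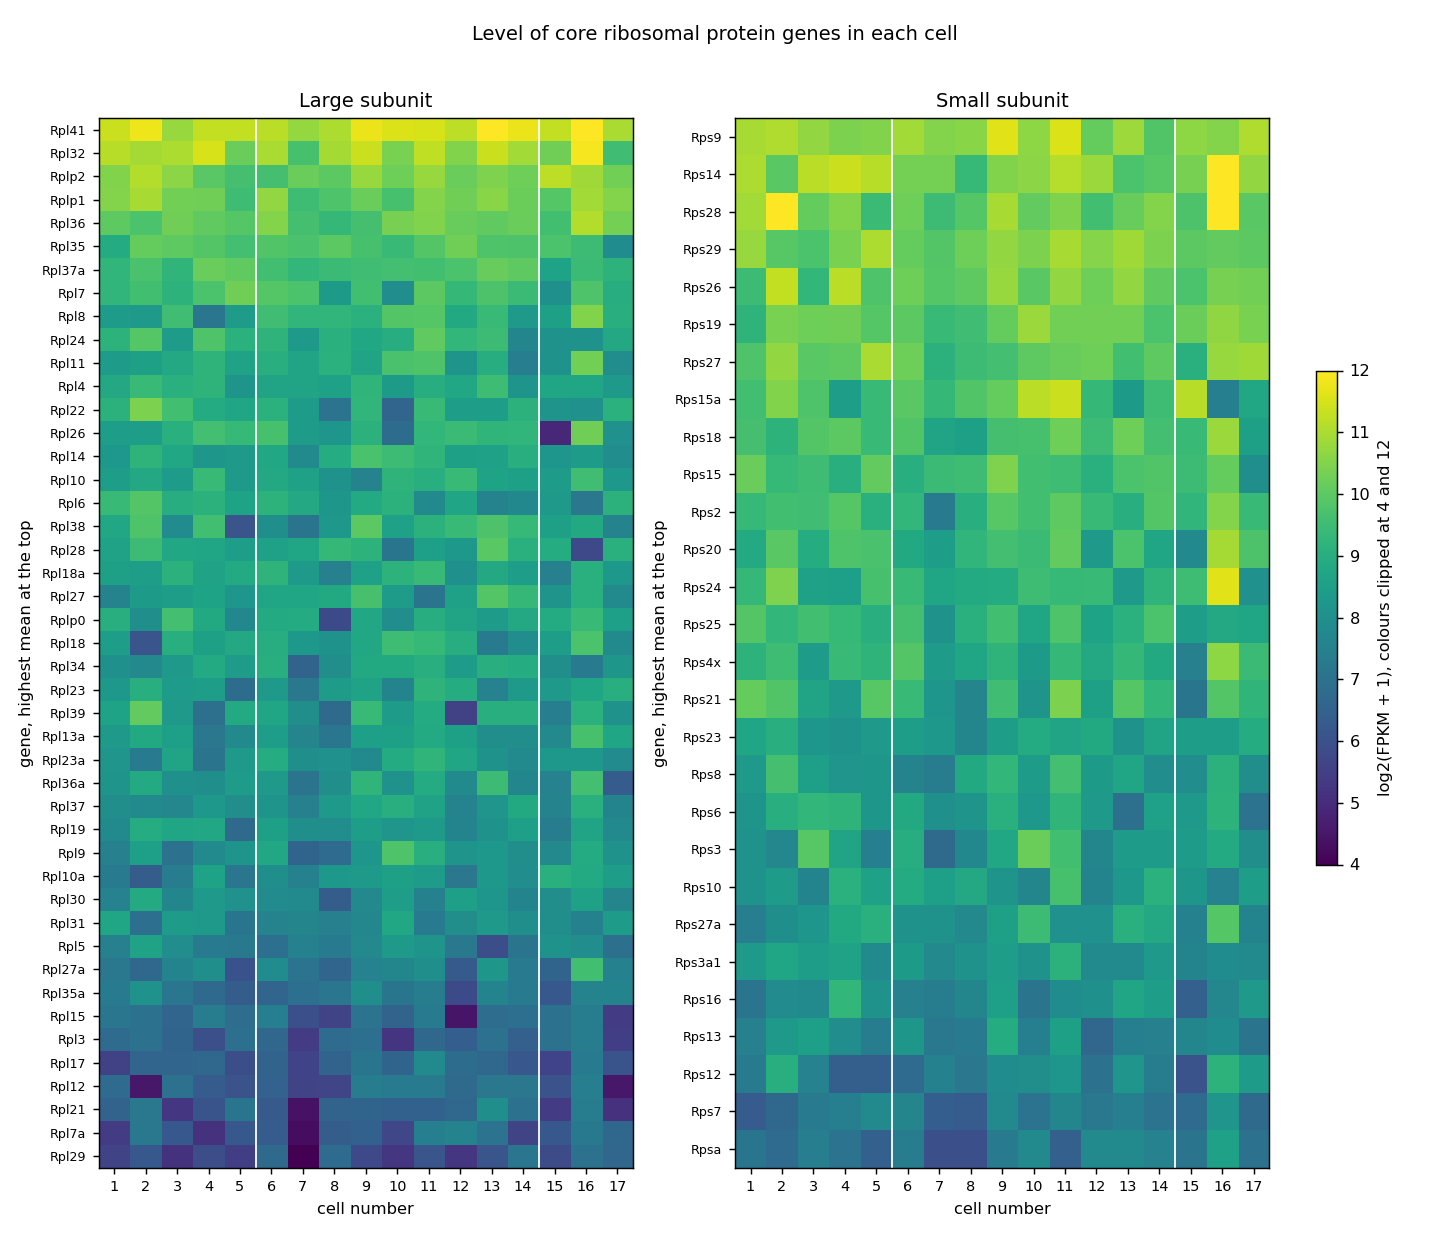
Level in log2(FPKM + 1) (colour, clipped at 4 and 12) of the 45 large subunit genes (left) and 28 of the 31 small subunit genes (right) in each of the 17 cells (x axis), with the highest mean at the top; white lines separate cells 1 to 5, 6 to 14 and 15 to 17. Between pairs of cells the Spearman correlation over the 76 core genes was 0.56 to 0.89. Single values departed from the order, such as Rpl26 at 4.94 in cell 15 and Rpl28 at 5.76 in cell 16.

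The order of the core genes was broadly kept from cell to cell. Over the 136 pairs of cells, the Spearman correlation across the 76 core genes was 0.56 at the lowest, 0.77 at the median and 0.89 at the highest. Genes are not independent replicates.

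The steadiest genes of the large subunit were Rpl37a (SD 0.39), Rpl4 (0.41) and Rpl36 (0.42), and those of the small subunit Rps23 (0.36), Rps29 (0.41) and Rps3a1 (0.41). Rps23, a protein of the decoding centre, lay between 7.69 and 9.02 in all cells. The most variable large subunit genes were Rpl26 (SD 1.25), Rpl39 (1.11) and Rpl29 (1.08). Rpl26, which also binds p53 messenger RNA, had a median of 9.15 and a highest value of 10.26, but 4.94 in cell 15. Rpl39, a protein of the exit tunnel, was lowest in cell 12 at 5.55 and highest in cell 2 at 10.07. In the small subunit the largest SD was that of Rps15a (1.04), and Rps21 had an SD of 0.95. Rps15a was at 7.44 in cell 16 and at 11.37 in cell 11.

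The mean over large subunit genes stood below that over small subunit genes in every cell. The mean level per cell was 7.78 to 8.86 for the large subunit (median 8.39) and 8.53 to 9.69 for the small subunit (median 9.08). The difference, large minus small, averaged -0.72 (SD 0.12, n = 17 cells), from -0.87 in cell 5 to -0.42 in cell 13, and was below 0 in 17 of 17 cells. FPKM divides by gene length, whereas the kit reads the 3' ends of messenger RNAs. With each FPKM multiplied by exonic length in kilobases before the log was taken, the difference was -0.83 (SD 0.12), again below 0 in 17 cells. Among the 40 core genes that share 50-base coding words with fewer than 10 other annotated genes, it was -0.51 (SD 0.15). The cells share 1 normalisation and 1 set of gene models, so 17 cells with the same sign are not 17 separate results.

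The mean levels of both subunits moved together from cell to cell. The mean over large subunit genes and that over small subunit genes correlated at r = 0.93 (Spearman rho 0.91, n = 17 cells). Without cells 7 and 16, the farthest from the median, r was 0.89. The cells fall into 3 runs of numbers whose low values are alike (1 to 5, 6 to 14 and 15 to 17), a grouping found in these data and not a label. With the mean of each run subtracted r was 0.94, and in cells 6 to 14 alone it was 0.92 (n = 9 cells). Each point is 1 library, in which both means are measured on the same quantile-normalised scale. Averaging over 45 and 31 genes raises such a value above that of single pairs, whose mean r between subunits was 0.194. Sets of other genes of that size were not compared in the same way.

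**Figure D3:**
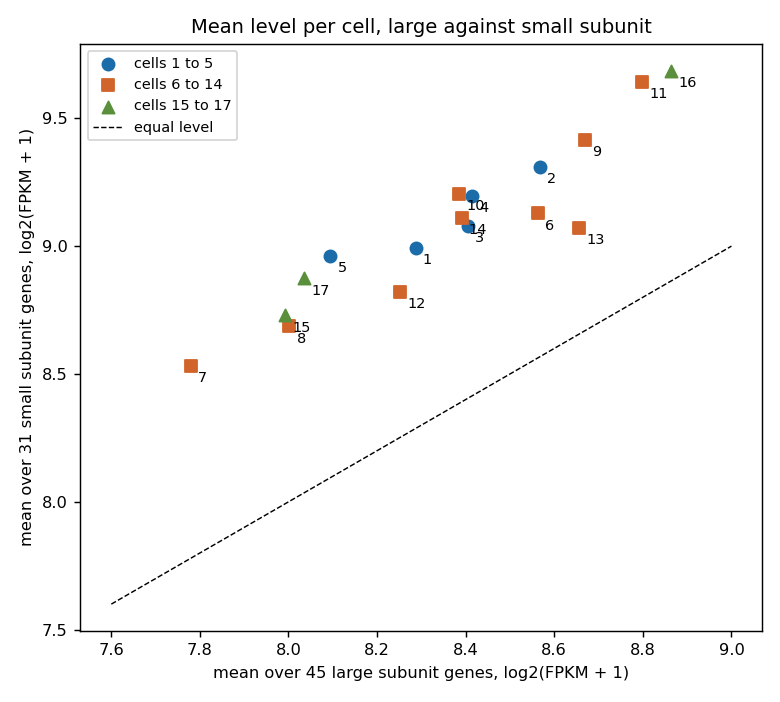
Mean level over 45 large subunit genes (x axis) against that over 31 small subunit genes (y axis), both in log2(FPKM + 1), 1 point per cell with its number; marker shapes show cells 1 to 5, 6 to 14 and 15 to 17 and the dashed line equal levels. All 17 cells lie above the line, from cell 7 (7.78 large, 8.53 small) to cell 16 (8.86 large, 9.69 small).

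The core genes together took 5.32% of the summed FPKM in cell 7 and 11.9% in cell 16, with a median of 7.27%. The next highest share after cell 16 was 10.4%, in cell 11. Cell 16 held the highest value of 24 core genes, among them Rpl32, Rps14, Rps18 and Rps24. The same cell held the lowest value of 4 others, Rpl28 (5.76), Rpl6 (7.18), Rps15a (7.44) and Rps10 (7.54). Cell 11 was above a gene's own mean for 67 of 76 core genes and cell 16 for 59. Cell 7 was above it for 12, and held the lowest value of 13 core genes, among them Rpl41, Rps2 and Rps3.

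Cell 16 also had the highest mean of the adipocyte markers, 7.36 against at most 4.53 in the other cells. Its mean of the 4 measured cell cycle genes, 4.15, was the highest too, against at most 3.28 in the others. Mki67 and Top2a had no row. Cell 7 had 9 of 11 fibroblast markers, the fewest of any cell. Over the 17 cells the mean level of the core genes correlated with the adipocyte mean at r = 0.37, with the fibroblast mean at 0.13 and with the mural mean at 0.09. Without cells 7 and 16 each of these turned below 0, to -0.09 for the adipocyte, -0.10 for the fibroblast and -0.18 for the mural mean. The correlation with the endothelial mean was -0.23, and -0.61 without those cells. For the cell cycle mean it was 0.18, and -0.10 without those cells. That with the number of genes above the lowest value was 0.19, and 0.44 without them. The part of these in the level of the core genes was not tested.

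Pairs of core genes were on average weakly related. The mean pairwise r was 0.172 over 990 pairs within the large subunit, 0.206 over 465 pairs within the small subunit and 0.194 over 1395 pairs between them. Over all 2850 pairs it was 0.189, and 76.2% of pairs were above 0. The same mean was 0.0593 for the 237 other genes with a mean level of 8 or more, and 0.000553 for all 3964 genes detected in at least 9 cells. The value for pairs between subunits thus lay between those for pairs within a subunit. Single pairs were far from this mean. Of the 2850 pairs, 354 (12.4%) had r of 0.5 or more and 19 (0.667%) of -0.5 or less. The share of such pairs among other genes is not given here, so these counts are not read as a trait of the family. The highest were Rpl21 with Rpl41 (0.83), Rpl7 with Rpl26 (0.82) and Rpl32 with Rpl36a (0.80), and without cell 16 these were 0.82, 0.83 and 0.76. The ends of so many pairs over 17 cells are a description of these cells.

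A core gene's correlation with the mean of the other core genes had a median of 0.48. It was 0.5 or more for 35 of 76 genes, 19 of the large and 16 of the small subunit. Of the 237 other genes with a mean level of 8 or more, 4 reached 0.5 with the core mean. Among all 3877 genes outside the family that were detected in at least 9 cells, 105 did. Of the core genes, the correlation was highest for Rps18 (0.81), Rpl17 (0.79), Rpl36a (0.78), Rpl32 (0.77) and Rps2 (0.76). For 5 core genes it was below 0, among them Rpl28 (-0.37), Rpl6 (-0.30), Rpl31 (-0.17) and Rps15a (-0.10). Rpl28, Rpl6 and Rps15a were lowest in cell 16, where the core mean was highest. Without cell 16 their correlations were -0.0017 for Rpl28, -0.08 for Rpl6 and 0.23 for Rps15a, so the negative value of Rpl28 rests on that cell and that of Rps15a changes sign. Without it Rpl31 stood at -0.10 and the 5 highest at 0.71 to 0.76. Rpl28 also formed both of the most negative pairs, with Rpl18 and with Rps14 (r = -0.72 each). Without cell 16 these were -0.75 with Rpl18 and -0.52 with Rps14. It overlaps Ube2s, a gene on the opposite strand that also has a row, and no source at hand says whether counting used the strand. The same holds for 10 members in all, among them Rps18, Rpl18, Rps2 and Rpl12.

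The 12 copies fell into sets that behaved differently beside their core genes. For 6 of them, words of 50 bases were found unchanged in the core gene's coding sequence, and their levels over cells followed that gene at r = 0.84 to 0.99. The other 6 shared no such word, and their r ranged from -0.58 to 0.37. Reads from a shared stretch cannot be told apart, so the levels of the 6 copies with shared words and of their core genes are uncertain as separate values. No source at hand says how the authors' counting divided such reads, and this was not tested.

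Rps12l1, an intronless pseudogene with the same 399 bases as the coding sequence of Rps12, was above Rps12 in all 17 cells, by 1.40 (SD 0.09), with r = 0.99. Rpl37rt, shown above, was at a mean of 11.46 and Rpl37 at 8.17. The difference was 3.29 (SD 0.14), and r was 0.97. Rps27rt was at a mean of 11.17, with 10.08, 11.20 and 12.47 as lowest, median and highest, and Rps27 at 10.04. That difference was 1.14 (SD 0.28), with r = 0.90. The copies are shorter than the core genes, and FPKM divides by length. With FPKM multiplied by exonic length the difference turned to -0.94 for Rps12l1 and -0.34 for Rps27rt, and was 2.13 for Rpl37rt. On the FPKM scale Rpl37rt had the highest mean of all members, above Rpl41. Its compared transcript differs at only 1 of 294 bases from the coding sequence of Rpl37. Exonic length is 752 bases for Rpl37rt and 1684 for Rpl37, and sequence outside those 294 bases was not aligned.

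The pseudogenes of Rps3a1, a small subunit protein near the messenger RNA exit, were similar. Rps3a3 differs at 9 bases of the coding sequence and was 1.80 above Rps3a1 on average (r = 0.92). Rps3a2 differs at 4 bases and was 0.39 above it (r = 0.84), higher in 16 of 17 cells. With FPKM multiplied by exonic length these differences were 1.50 for Rps3a3 and 0.09 for Rps3a2. Rpl6l, a shortened copy of Rpl6 with 11 differences over 871 aligned bases, was 1.16 below Rpl6 (r = 0.93) and lower in all cells. With FPKM multiplied by exonic length that difference was -3.01. Rpl6 and Rpl6l were lowest in the same cell, cell 16, and highest in the same cell, cell 2.

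The remaining copies are distinct in sequence. Rps27l, known in humans and mice as a target of p53, had a mean of 10.02 beside 10.04 for the Rps27 row. It was the higher of the pair in 9 of 17 cells (r = 0.33). The Rps27 row is uncertain as a separate value, because Rps27rt, at a mean of 11.17, has the same coding bases. How Rps27l compares with Rps27 thus depends on how shared reads were divided, which was not tested. Rpl22l1, the paralog of the RNA-binding protein Rpl22, had a mean of 8.65 beside 8.70, and was higher in 6 cells (r = 0.30). The mean difference was smaller than its SD over cells in both pairs, which was 0.69 for Rps27l and 0.93 for Rpl22l1. With FPKM multiplied by exonic length the mean difference was -0.37 for Rps27l and -0.61 for Rpl22l1. In both pairs the rows of paralog and core gene were at FPKM 1 or more in every cell.

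Rpl36al was higher than Rpl36a in 15 of 17 cells, at a mean of 9.99 against 8.21 for Rpl36a, and ran against it from cell to cell (r = -0.58, rho -0.55). Rpl36al was lowest in cell 16 at 7.63, where Rpl36a was highest at 9.61. In cell 8 Rpl36al was highest at 11.40, with Rpl36a at 7.96. In cell 13 the values were 8.04 for Rpl36al and 9.48 for Rpl36a. Those were the only cells, 13 and 16, in which Rpl36al was the lower of the pair. Rpl36al also ran against the mean of the core genes (r = -0.46), whereas Rpl36a went with the mean of the other core genes (r = 0.78). With the mean of the core genes subtracted from both, r was -0.63, and no regression on that mean was fitted. Subtraction does not remove these opposite relations to the family, so -0.63 is not a value for the pair alone. The direct correlation was -0.45 without cell 16, and -0.51 without cells 16 and 17, the farthest from the median of Rpl36a. The encoded proteins sit near the site from which transfer RNA leaves the ribosome.

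Rpl39l, known in mouse for its high level in male germ cells, was the least detected member. It was at FPKM 1 or more in 8 cells, with values from 1.46 in cell 2 to 7.50 in cell 15, and below 1 in the other 9. Its values in cells 4 and 15 were 7.47 and 7.50, and Rpl39 was at 6.96 and 7.42 in those cells. In cell 12 Rpl39l was at 5.59 and Rpl39 at 5.55. Those were the only 3 cells in which Rpl39l was the higher of the pair. In cells 1, 6 and 17 Rpl39l was at 6.84, 6.56 and 7.13, with Rpl39 above it at 8.64, 8.69 and 8.11. Rpl39 had a median of 8.21 in the 8 cells with Rpl39l and 8.91 in the other 9, with ranges that overlapped. The correlation over cells was -0.47 (rho -0.60), and -0.61 without cells 8 and 12.

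Rps4l, a pseudogene with 80.5% identity to the X-linked Rps4x, ranged from 1.17 in cell 13 to 9.49 in cell 15. Cell 15 was also where Rps4x was lowest, at 7.49, and over cells r was -0.40. Without cells 15 and 16 it was -0.18. Rpl7l1, a distant relative of Rpl7 that acts in ribosome assembly in humans, was detected in 10 cells, with a median of 3.81 and a highest value of 7.15, and was below Rpl7 in all 17.

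**Figure D4:**
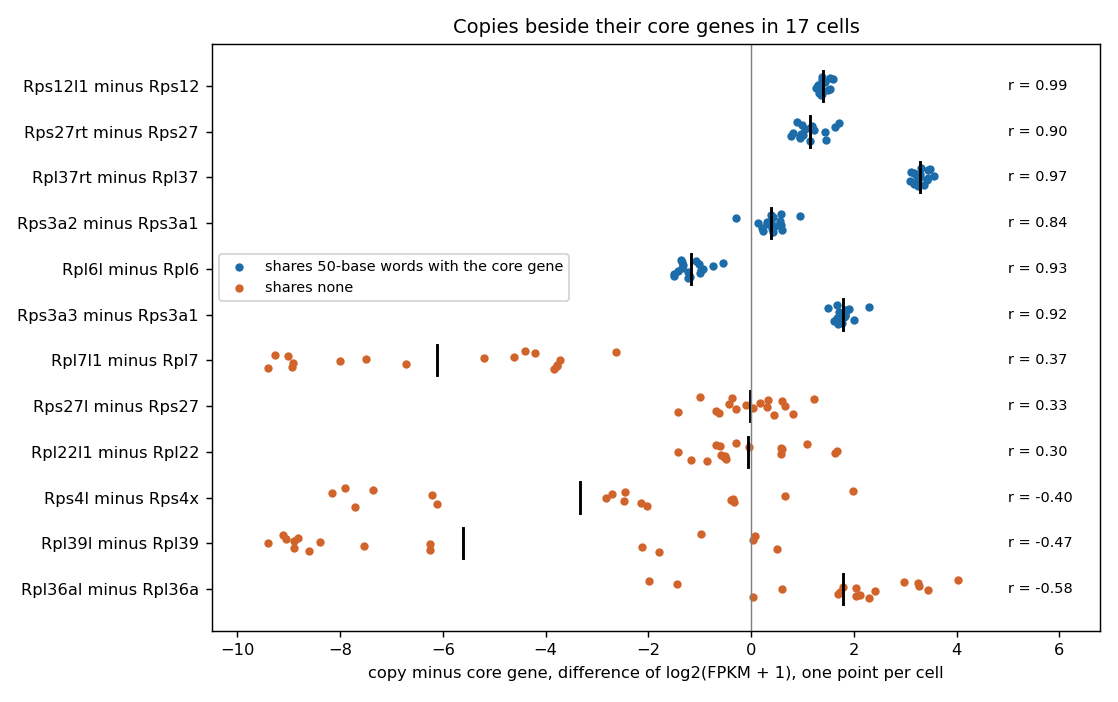
Level of each copy minus that of its core gene, in log2(FPKM + 1) (x axis), 1 point per cell, with a black bar at the mean and the correlation over 17 cells at the right. Blue points are copies that share 50-base words with the core gene (SD of the difference 0.09 to 0.28) and orange points those that share none (SD 0.69 to 3.88).

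Shared sequence was not limited to the measured copies. Of 76 core genes, 75 shared at least 1 coding word of 50 bases with another annotated gene, and 26 shared every word. The number of other genes sharing a word had a median of 9 and was highest for Rpl7a (123), Rpl29 (84), Rpl21 (82), Rps2 (71) and Rpl17 (51). Only 14 core genes shared words with a gene that has a row of its own in the table. The 3 large subunit genes with the lowest levels, Rpl29, Rpl7a and Rpl21, were thus also those that shared words with the most other genes.

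Across the 76 core genes, the mean level correlated with the number of other genes that share a word at r = -0.55 (rho -0.52), with that number plus 1 on a log2 scale. The median level was 8.99 for the 40 core genes with fewer than 10 such genes, 8.38 for the 31 with 10 to 29, and 6.39 for the 5 with 30 or more. Rps2 was the exception among these 5, at 9.42. With levels multiplied by exonic length r was -0.49. The SD over cells was not related in the same way (r = 0.10). The genes share 1 normalisation and differ in coding length as well, which correlated with level at r = -0.40. The part of multiply mapping reads in these levels was not tested.

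**Figure D5:**
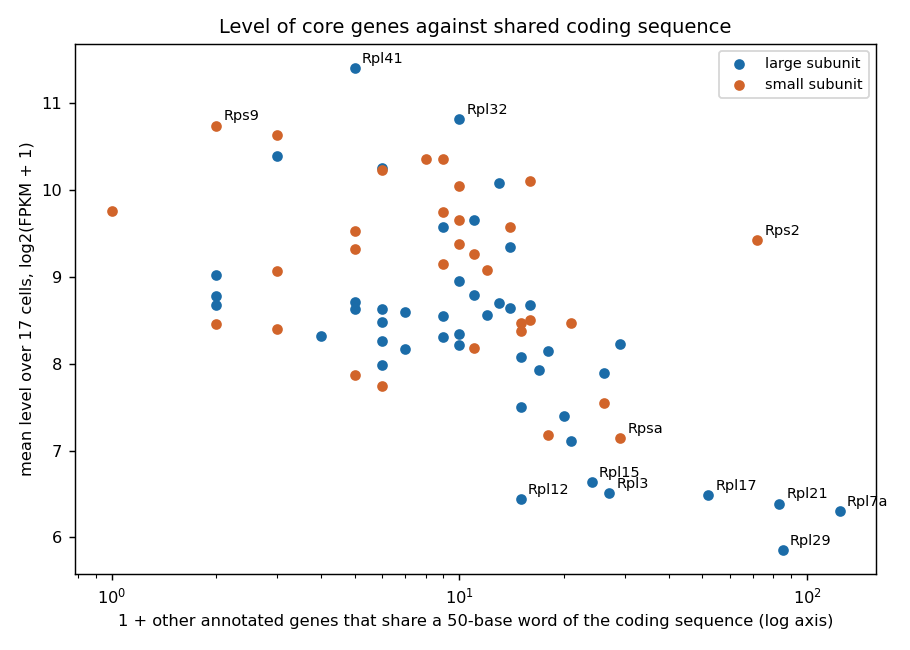
Mean level of each core gene over 17 cells in log2(FPKM + 1) (y axis) against 1 plus the number of other annotated genes that share a 50-base word of its coding sequence (x axis, log scale), for large and small subunit genes. The 5 genes with 30 or more such genes lie between 5.86 and 6.48, except Rps2 at 9.42.

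The first bases of some core messenger RNAs are shown because the C and T run at the start is what the family is known to share. RefSeq promoters (GRCm38.p6) were found for 56 core genes. Within 30 bases on each side of the annotated start, 55.4% of the 56 held a run of at least 8 bases of C or T on the coding strand, against 25.8% of all 27025 genes with a promoter. Runs of A or G of the same length were held by 14.3% of the core genes and 28.7% of all genes. A run of at least 5 bases of C or T that included the annotated first base was held by 35.7% of core genes and 11.8% of all genes. The windows below run from 15 bases before the start to 14 after it, with that run in capitals, at chr2:39005117-39005146 (Rpl35, minus strand), chr7:141447636-141447665 (Rplp2, plus), chr17:27635230-27635259 (Rps10, minus), chr7:4792950-4792979 (Rpl28, plus) and chr2:26910792-26910821 (Rpl7a, plus).
Rpl35: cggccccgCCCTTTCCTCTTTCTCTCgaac
Rplp2: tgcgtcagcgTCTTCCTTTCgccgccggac
Rps10: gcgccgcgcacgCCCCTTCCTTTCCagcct
Rpl28: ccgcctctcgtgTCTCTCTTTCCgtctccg
Rpl7a: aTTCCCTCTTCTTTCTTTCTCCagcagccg

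These genes differed widely in level and in their relation to the rest of the family. Rplp2 had a mean of 10.38, Rpl28 one of 8.62 and Rpl7a one of 6.30. Their correlations with the mean of the other core genes were 0.33, -0.37 and 0.49. The motif CCGGAAG, searched on both strands over 300 bases, was held by 42.9% of core genes, 22.0% of the other genes with a row and 9.93% of all genes. A match is a description of the sequence only.

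Other genes of the translation apparatus were set beside the core genes. Of 21 measured further genes with a terminal oligopyrimidine tract, 13 (61.9%) were detected in all cells, against 13.02% of all rows. The highest means were those of Tpt1 (10.82), the elongation factor gene Eef1a1 (10.26) and the poly(A)-binding protein gene Pabpc1 (8.04). The mean of this list correlated with the mean of the core genes at r = 0.52 over 17 cells, and at 0.40 without cells 7 and 16. A single member, the small nucleolar RNA host gene Snhg1, reached r = 0.5, at 0.67, and Tpt1 stood at 0.50 after rounding.

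Ribosome biogenesis genes, whose products process ribosomal RNA and assemble the subunits, were detected in all cells about as often as all rows. Of 37 measured, 5 were detected in all cells, among them the maturation factor Eif6 (mean 7.71), nucleolin (Ncl, 7.51) and Nop10 (6.89). The mean of all 37 correlated with the core mean at r = 0.29 (0.37 without cells 7 and 16), and no member detected in at least 9 cells reached 0.5. The highest of those were Utp3 (0.43) and Gnl3 (0.41). Among members detected in fewer cells, Wdr12 (5 cells) stood at 0.69 and Polr1a (3 cells) at 0.43. Of 30 measured translation factors and regulators 11 (36.7%) were detected in all cells, led by Eif1 (10.01), Eif3k (7.55) and Eif2s2 (7.50). The mean of that list correlated at 0.18, and at 0.07 without cells 7 and 16. Its closest members were Eif3j1 (0.61), Larp1 (0.51), which was detected in 6 cells, and Eif4h (0.49).

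Mitochondrial ribosomal proteins and nuclear-encoded respiratory chain genes were set beside the family as other large complexes. Of 77 mitochondrial ribosomal protein genes 15.6% were detected in all cells, and of 98 respiratory chain genes 64.3%, against 13.02% of all rows. The mean pairwise r was 0.0742 among the mitochondrial ribosomal protein genes and 0.0882 among the respiratory chain genes. The mean of the mitochondrial ribosomal protein genes correlated with the core mean at -0.10, and at 0.15 without cells 7 and 16. For the respiratory chain genes this was -0.47, and -0.22 without cells 7 and 16. On a scale with a fixed distribution in each cell, a rise of some genes lowers the place of others, so the sign of such a value was not read further. The mean of the immediate-early genes, a known early response to digesting a tissue, correlated with the core mean at -0.03, and at 0.11 without cells 7 and 16.

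Outside the family, 3877 genes detected in at least 9 cells were ranked by their correlation with the mean of the core genes, and 105 reached 0.5. The most alike were Vegfa (0.76), a growth factor for blood vessels, Aebp1 (0.75), a secreted collagen-binding protein, Ndufs3 (0.72), a subunit of respiratory complex I, and Tmem29 (0.68). They were followed by the RNA methyltransferase gene Nsun2 (0.68), Eif3j2 (0.67), Snhg1 (0.67), Cdk11b (0.67), the transfer RNA methyltransferase gene Trmt1 (0.67) and the exosome gene Exosc3 (0.66). Vegfa ranged from 0.48 to 8.88 and Aebp1 from 2.92 to 8.89, with the highest value of each in cell 16. Without that cell r was 0.71 for Vegfa and 0.70 for Aebp1. Over 17 cells the ends of so long a ranking are a description of these cells.

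The genes that ran most against the core mean were Tspo (-0.76), a protein of the outer mitochondrial membrane, Dynlt1a (-0.76), Dbi (-0.75), an acyl-CoA-binding protein, the pyruvate carrier gene Mpc1 (-0.75) and Dynlt1b (-0.75). Dynlt1a and Dynlt1b are near-identical copies of a dynein light chain gene and count as 1 observation. Tspo had a lowest level of 4.84 and a highest of 10.52, in cell 15. Dbi ranged from 4.54 to 10.96 and was highest in cell 7, the cell with the lowest core mean.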

How the data were processed

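One table of 8446 genes by 17 cells was used. Per the labels, cells positive for Tomato were sorted, then picked as single cells, and libraries were made with the SMART-Seq v4 3' DE and Nextera XT kits. The tools named are Cufflinks and TopHat2, with the build GRCm38, per the submitters' processing notes. The deposited values are FPKM on a log scale, read here as log2(FPKM + 1). Sorted values above 3 differed between cells by at most 0.0165, the form that quantile normalisation gives. Read counts per cell are unknown, so no depth-based interval is given.

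Of the rows, 8438 matched GENCODE M21 by Ensembl identifier. Coding sequences were cut into words of 50 bases, and each word was sought on both strands of the transcripts of other genes that do not overlap the gene. Copies were aligned to their core genes with Biopython 1.88. Detection means FPKM 1 or more. No test was run, because the cells form 1 sample. Correlations are Pearson's r unless named as rho, and the correlation code was checked on simulated data. Named in full were, per subunit, the 5 highest and 3 lowest means and the 3 largest and 3 smallest SDs, and every copy. Outside the family these were the 10 highest and 5 lowest correlations with the core mean, and the leading list members. Other core genes are named by role, or were chosen after their values were seen. The members and lists were chosen with earlier results of these data known. Alternatives covered the threshold, the pseudocount (0.1), length, the gene set and the cells. Scripts ran under Python 3.11.15 with pandas 2.3.3 and numpy 2.4.6, and figures were drawn with matplotlib 3.10.9. A few genes and a sequence are not reported here.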

Additional observations from a re-analysis of the deposited data

How the results depend on the processing

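Of 33 alternatives over 7 results, 23 moved the value by less than its spread, 6 kept a count of detected genes within 1.5 times, 0 reversed a sign and 4 moved the value by more than its spread. The alternatives that use only core genes sharing words with fewer than 10 other genes, that add the copies sharing words with a core gene to the summed share, and that leave out cell 16 from the share, the subunit difference and single correlations, or the 2 cells farthest from a core gene's median from the correlation with its copy, were chosen after seeing the data. The median share of core genes in the summed FPKM, 7.27%, was 4.52% with levels multiplied by exonic length and 9.27% with all 88 members. The large minus small difference of -0.72 was -0.51 among the 40 core genes that share words with fewer than 10 other genes, and the correlation of the subunit means was 0.87 there. The causes were not tested beyond what each setting fixes. The mean pairwise correlation of core genes, 0.189, ranged from 0.163 with all members to 0.244 in cells 6 to 14. No paired analysis was possible because all cells belong to 1 group. Depth is unknown, so no detection limit can be given, and 17 cells without named animals say nothing of the spread between mice.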
